A study of Mus musculus with 12 samples.

Results

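Transcripts of heart muscle genes were detected in lung tissue of FVB/N mice, and their level varied widely between arrays of the same diet. Their difference with dietary Se was estimated with little precision from 3 arrays per diet, and it hung on single arrays. These points were examined for 10 genes of cardiac muscle: Myl4, Myl7, Sln, Nppa, Myh6, Actc1, Tnnt2, Tnni3, Myoz2 and Ryr2. Every probe set annotated to 1 of these genes alone was taken, which gave 11 of the 29409 probe sets that are not array controls, with 2 for Tnnt2 and 1 for each other gene. The lung arrays came from male FVB/N mice put at weaning, at 3 weeks of age, on a Se-deficient diet for 6 weeks. In the 0.1 Se group 0.1 ppm Se was added to that diet as sodium selenite, and in the 0 Se group none was added. Each group had 3 lung arrays, labelled biological replicates, and 6 liver arrays of the same 2 diets served as a second tissue. Total RNA of whole tissue was hybridized to Affymetrix Mouse 430 2.0 arrays, and the values are log2 signals of the MAS5 algorithm, in which 1 unit is a doubling. The lowest value in the table was 6.64, a signal of 100.0, and from a blank alone a call of absent and a signal below that limit cannot be told apart.

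Cardiac muscle contracts when calcium, released through the ryanodine receptor, binds the troponin complex and lets myosin pull on actin filaments. Atrial and ventricular muscle share most of these proteins in the adult mouse, but differ in their myosin light chains: Myl4 and Myl7 are the atrial forms, whereas Myl2 and Myl3 are the ventricular ones. Sarcolipin (Sln), an inhibitor of the sarcoplasmic calcium pump, and the natriuretic peptide Nppa are also mainly atrial in the adult. In rodents a sleeve of heart muscle continues from the left atrium along the pulmonary veins into the lung, so lung tissue can hold cardiac muscle cells without any heart being sampled. The arrays do not record where in the tissue an RNA came from.

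The stretch before the transcription start is shown for 4 members, picked because it holds binding motifs for which heart genes are known. RefSeq promoters of GRCm38.p6, each running from 250 bases before to 50 bases after an annotated start, were found for 9 of the 10 genes (10 promoters, of which Tnnt2 has 2). The 130 bases before the start are printed, 5′ to 3′ in the direction of the gene. Capitals mark matches to GATA (these 4 letters with A or T before and A or G after them), TEAD (CATTCC), CArG and MEF2 motifs on either strand, of which CArG and MEF2 have 10 letters and are given by name.
Myl7 promoter, chr11:5898783-5898912, minus strand: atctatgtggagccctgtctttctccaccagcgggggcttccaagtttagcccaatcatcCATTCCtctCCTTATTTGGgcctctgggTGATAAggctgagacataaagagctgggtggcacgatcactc
Nppa promoter, chr4:148000592-148000721, plus strand: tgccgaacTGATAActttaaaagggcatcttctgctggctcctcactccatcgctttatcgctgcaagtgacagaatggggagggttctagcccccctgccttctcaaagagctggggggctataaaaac
Actc1 promoter, chr2:114052876-114053005, minus strand: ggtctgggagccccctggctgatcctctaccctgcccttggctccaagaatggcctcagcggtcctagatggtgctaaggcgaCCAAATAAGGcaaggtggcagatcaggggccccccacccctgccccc
Myoz2 promoter, chr3:123034988-123035117, minus strand: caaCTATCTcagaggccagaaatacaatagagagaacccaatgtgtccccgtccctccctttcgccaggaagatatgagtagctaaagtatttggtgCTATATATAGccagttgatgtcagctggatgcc
The Myl7 stretch held a TEAD match 70 bases before the start, a CArG match 61 bases before it and a GATA match 42 bases before it. A CArG match lay 47 bases before the start of Actc1 and a MEF2 match 33 bases before that of Myoz2, while the GATA match of Nppa lay at 122 bases. Over the whole promoters, a CArG motif was present in 2 of 10 member promoters (Actc1 and Myl7), against 1.63% of 32851 promoters of the same length, and MEF2 in 1 of 10 (Myoz2), against 0.557%. GATA was present in 5 of 10 against 29.8%, and TEAD in 3 of 10 (Myh6, Myl7 and 1 of the Tnnt2 promoters) against 14.7%. The promoters of Myl4, Tnni3 and Ryr2 and the other Tnnt2 promoter held no CArG, MEF2, GATA or TEAD match. The NKX2-5 motif AAGTG (5 of 10 against 46.4%) and the E-box CANNTG (9 of 10 against 72.3%), which can overlap each other, are common motifs. A match describes the letters in this window and is no evidence of binding.

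The lung arrays were alike in the number of listed probe sets, 22197 to 22718 per array. The median log2 signal lay between 8.96 and 9.00, but each array had been scaled on its own, so alike medians are no measure of quality. Weights that limma estimated for the arrays ran from 0.61 (0.1 Se lung 1) to 1.94 (0 Se lung 2). Of the 9 markers of lung epithelium with a probe set, such as the surfactant genes, all 9 were listed on each of the 6 arrays, whereas albumin was absent from 3 of the 6 and had at most 7.15 on the others. No member probe set had a value on any of the 6 liver arrays.

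Among the atrial genes, Myl4, the essential light chain of atrial myosin, had log2 signals of 11.34, 9.95 and 10.31 in 0.1 Se lungs, against 9.20, 12.52 and 11.72 in 0 Se lungs. Myl7, the atrial regulatory light chain whose promoter is shown above, had 11.52, 9.68 and 9.93 in 0.1 Se lungs, against 8.50, 12.39 and 11.75 in 0 Se lungs. In both genes the lowest and the 2 highest values belonged to the 0 Se group, so the diets overlapped fully. Sln followed the same course, with 10.15, 8.50 and 8.65 in 0.1 Se lungs, against 7.91, 11.53 and 10.87 in 0 Se lungs. Nppa, the precursor of atrial natriuretic peptide, was blank in the 3 0.1 Se lungs and in 0 Se lungs 1 and 3, and was 10.80 in 0 Se lung 2. That array also had the highest value of each other member. In the table, 1374 probe sets had a value on a single lung array, with a median of 6.83 and a 99th percentile of 8.61, and Nppa was the highest of them. Whether its 5 blanks are absent calls or low signals cannot be told apart, so no fold is given for it.

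The genes used by atria and ventricles alike moved with the atrial genes. Myh6, the main myosin heavy chain of the adult mouse heart, had 12.17, 9.81 and 10.27 in 0.1 Se lungs, against 9.26, 12.83 and 12.24 in 0 Se lungs. Actc1, cardiac actin, had 12.24, 10.30 and 10.89 in 0.1 Se lungs, against 10.96, 12.95 and 12.18 in 0 Se lungs. Here 0 Se lung 1 was not the lowest array, being above 0.1 Se lungs 2 and 3. The troponins make the filament respond to calcium. Tnni3, the inhibitory subunit, had 10.24, 8.36 and 8.71 in 0.1 Se lungs, against 7.86, 11.18 and 10.52 in 0 Se lungs. Tnnt2, the subunit that binds tropomyosin, had 11.64, 9.60 and 9.73 in 0.1 Se lungs, against 8.98, 12.10 and 11.34 in 0 Se lungs by its probe set ending in _a_at. Its other probe set, ending in _x_at and so more open to related transcripts, gave the same order of arrays, with 11.35, 9.08 and 9.58 in 0.1 Se lungs, against 8.63, 11.96 and 11.33 in 0 Se lungs. Of the 2 genes with weaker signals, Myoz2, a Z-disc protein that binds calcineurin, had 8.93, 7.64 and 7.58 in 0.1 Se lungs, against a blank, 9.81 and 9.37 in 0 Se lungs. Ryr2, the calcium release channel, was listed at 8.27 on 0.1 Se lung 1 and blank on 0.1 Se lungs 2 and 3, against a blank, 8.91 and 8.38 in 0 Se lungs. Ryr2 was thus listed on the same 3 arrays that were highest for the other members.

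**Figure D1:**
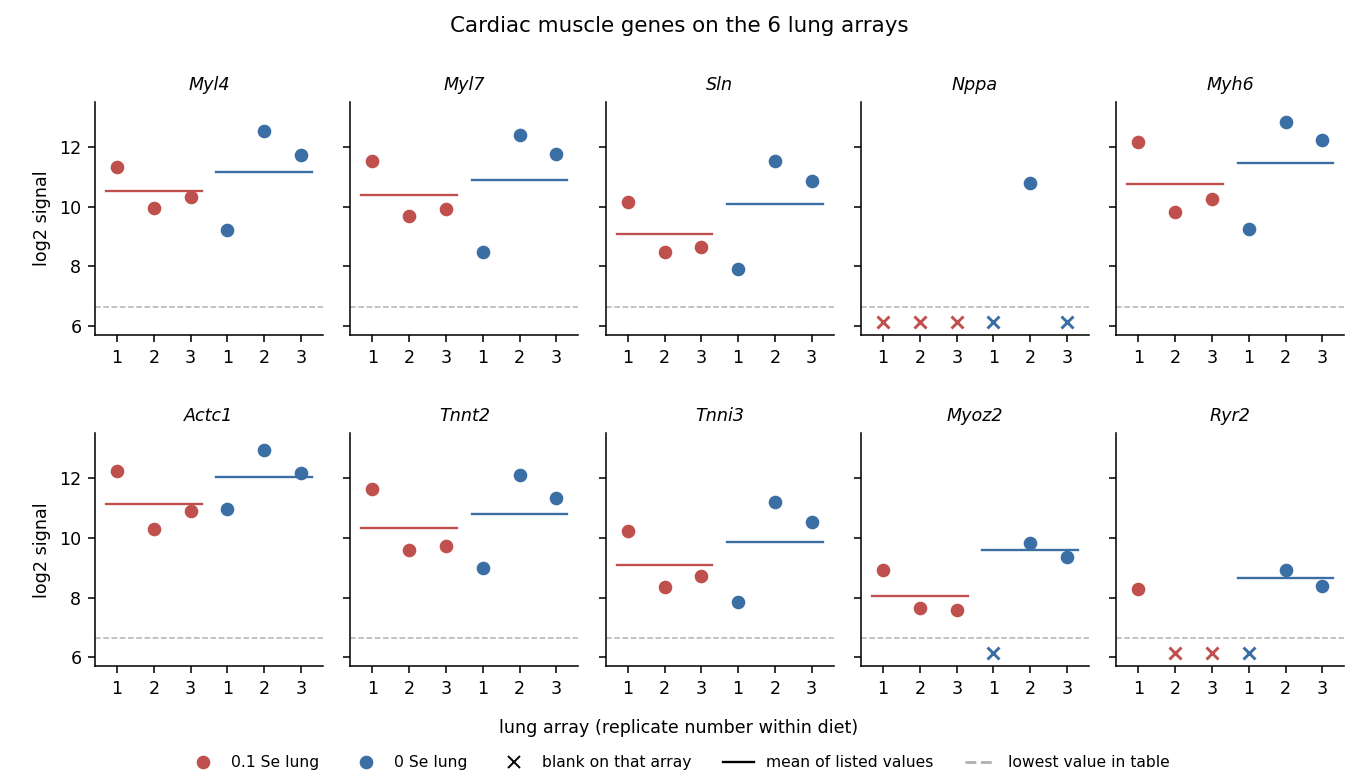
Log2 signal of the 10 cardiac muscle genes on each of the 3 0.1 Se (red) and 3 0 Se (blue) lung arrays, with 1 probe set per gene, the mean of listed values as a line, blanks as crosses and the lowest value of the table (6.64) as a dashed line. In nearly every panel 0.1 Se lung 1 and 0 Se lungs 2 and 3 are high, whereas 0 Se lung 1 is low or blank.

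The 6 lungs fell into a common order. For each of the 8 member probe sets with 6 values (7 genes), 0 Se lung 2 was the highest and the upper 3 arrays were 0 Se lung 2, 0 Se lung 3 and 0.1 Se lung 1. A gap of 1.02 (Myl4) to 1.90 (Myh6) log2 units separated these from the lower 3. The lowest array was 0 Se lung 1 for 7 of the 8 and 0.1 Se lung 2 for Actc1. Pearson's r between 2 members over the 6 lungs ran from 0.884 to 0.996 over 21 pairs of genes, with a median of 0.982. These are descriptions over 6 arrays, and the points share the same RNA samples. In bulk tissue, more cardiac muscle cells and more RNA per cell cannot be told apart.

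The distance between the highest and the lowest lung was large for these genes. It was 3.89 log2 units (14.8-fold) for Myl7, 3.62 (12.3-fold) for Sln, 3.57 (11.8-fold) for Myh6, 3.33 for Tnni3 and 3.32 (9.98-fold) for Myl4. The Tnnt2 probe sets spanned 3.32 (_x_at) and 3.12 (_a_at, 8.71-fold), and Actc1 2.65 (6.27-fold). Over the 20062 probe sets with a value on each of the 6 lung arrays, the median range was 0.45 and the 95th percentile 1.02. A range as large as that of Myl7 was reached by 5 probe sets, itself included, and one as large as that of Actc1 by 32. The spread was also wide within a diet, more so in 0 Se lungs. The SD over the 3 0 Se lungs was 2.09 for Myl7 and 1.91 for Myh6, and over the 3 0.1 Se lungs 1.00 and 1.25. The diet means of these 2 genes differed by -0.50 and -0.70.

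**Figure D2:**
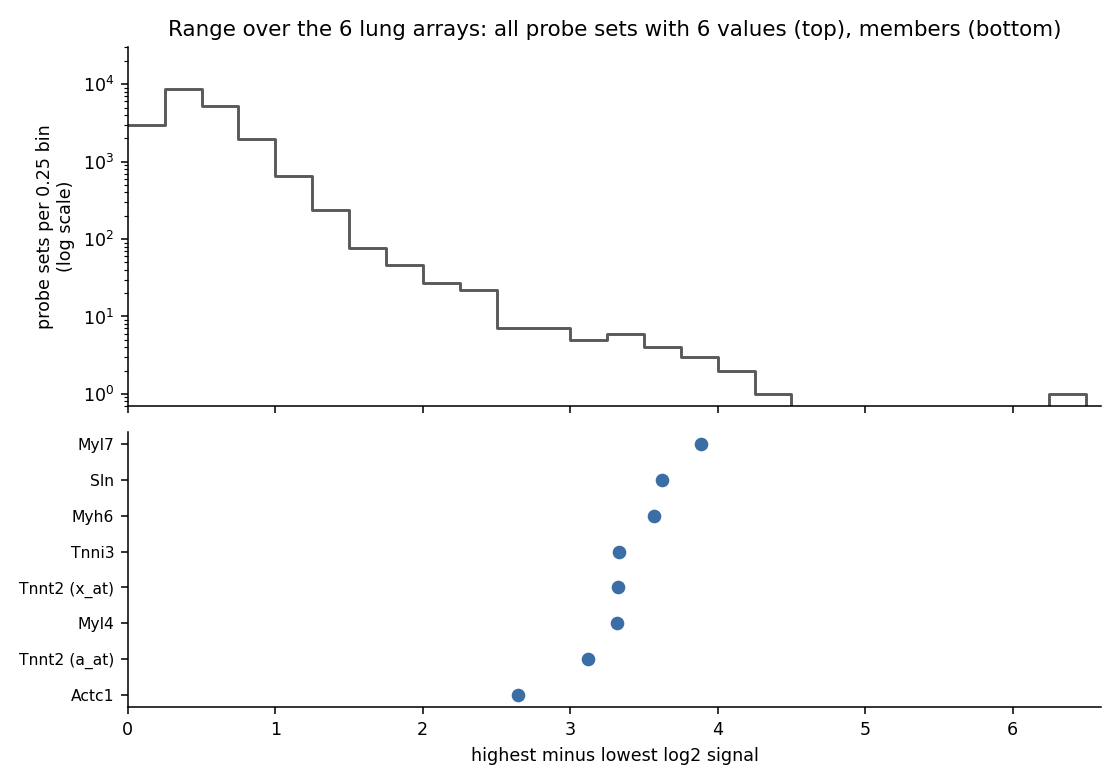
Top, number of probe sets (log scale) by their range over the 6 lung arrays in bins of 0.25 log2 units, for the 20062 probe sets with 6 values. Bottom, the range of each of the 8 member probe sets with 6 values, from 2.65 (Actc1) to 3.89 (Myl7), against a median of 0.45 over all.

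Whether dietary Se altered these genes was asked by setting 0.1 Se against 0 Se lungs with limma over all probe sets that had at least 2 values in each diet. Of 9 member probe sets tested (8 genes), 0 passed an adjusted p of 0.05 and 1, that of Myoz2, had an unadjusted p under 0.05. Over all 21655 probe sets tested, 20 passed (0.0924%) and 1661 (7.67%) had an unadjusted p under 0.05. The methods' t-test on the same values gave 0 member probe sets under that limit before adjustment. The 9 member values all lay below 0, with a median over the 8 genes of -0.72, where 52.1% of all probe sets lay below 0 and their median was -0.01. Because the members follow 1 order of arrays, these 9 values are not independent of each other. The log2 fold change, as 0.1 Se minus 0 Se, was -0.50 ± 0.83 (SE, adjusted p = 0.926) for Myl7, -0.62 ± 0.67 (0.887) for Myl4 and -1.0 ± 0.77 (0.828) for Sln. It was -0.70 ± 0.82 (adjusted p = 0.897) for Myh6, -0.89 ± 0.51 (0.761) for Actc1 and -0.75 ± 0.73 (0.871) for Tnni3. The probe sets of Tnnt2 gave -0.48 ± 0.71 (adjusted p = 0.917) and -0.63 ± 0.76 (0.90). In each of these genes the difference was smaller than the SD over the 0 Se lungs, and n was 3 per diet. The SD over the 0.1 Se lungs was 0.91 for Sln, less than its difference. For Myoz2, given below, the difference exceeded the SD of both diets (0.76 in 0.1 Se and 0.31 in 0 Se lungs). Mean signals in lung were thus higher in 0 Se than in 0.1 Se lungs, with no tested member passing, and both liver groups were blank.

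These differences hung on single arrays. Without 0 Se lung 2, the array with the highest values, the median over the member genes was 0.00 (7 genes) and Myl7 was 0.25, Tnnt2 0.16 and Myl4 0.069, while Myh6 was 0.00. Without 0 Se lung 1, the array with the lowest values, the median was -1.64, with -2.10 for Sln, -1.79 for Myh6, -1.75 for Tnni3, -1.69 for Myl7 and -1.59 for Myl4. None of these reached an adjusted p of 0.05 (smallest 0.153, for Sln). Without 0.1 Se lung 1 the median was -1.36, and without 0.1 Se lung 2 it was -0.35. The plot of values with and without each array shows this spread for every tested member.

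**Figure D3:**
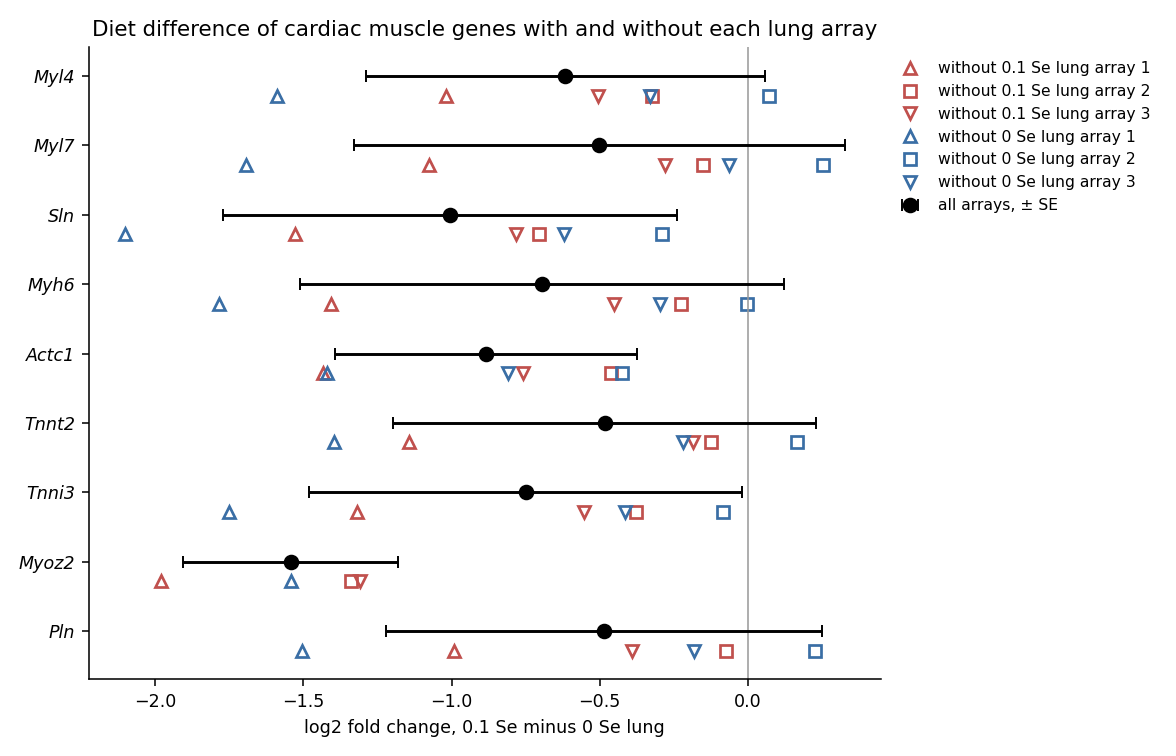
Log2 fold change of 0.1 Se minus 0 Se lung for the 8 tested member genes and Pln, with all arrays (black, bar = SE) and after leaving out each array in turn (open symbols, red for 0.1 Se and blue for 0 Se arrays). Leaving out 0 Se lung 1 gives -1.40 to -2.10 and leaving out 0 Se lung 2 gives -0.43 to 0.25, except for Myoz2, which is blank on 0 Se lung 1 and has too few values without 0 Se lung 2 or 3.

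Myoz2 was the member with the smallest p, and its fit lacked the array that was lowest for most members. Its log2 fold change was -1.54 ± 0.36 (limma adjusted p = 0.277, unadjusted p = 0.00187). Its listed values, 3 in 0.1 Se and 2 in 0 Se lungs, did not overlap between diets. How many of all probe sets lack overlap was not counted. The missing value was that of 0 Se lung 1, the array on which the 7 fully listed members were lowest or, for Actc1, the third from below. With blanks set to the lowest value of the table, Myoz2 was -0.56 ± 1.00 (adjusted p = 1). It passed without 0.1 Se lung 1 (-1.98, adjusted p = 0.00876). With array weights it was -1.85 (adjusted p = 0.0420). Pln, the phospholamban gene, whose protein restrains the same calcium pump as sarcolipin, showed the same thing within 1 gene. Its first probe set, listed on all 6 arrays, had 9.47, 7.63 and 8.27 in 0.1 Se lungs, against 6.91, 10.37 and 9.56 in 0 Se lungs, a difference of -0.49 ± 0.74 (adjusted p = 0.920). The second had 8.46, 7.30 and 7.59 in 0.1 Se lungs, against a blank, 9.91 and 9.22 in 0 Se lungs, a difference of -1.79 ± 0.33 (adjusted p = 0.124). On the third the values were 8.55, 6.75 and 7.02 in 0.1 Se lungs, against a blank, 9.69 and 8.54 in 0 Se lungs (-1.67 ± 0.50, adjusted p = 0.426). With 0 Se lung 1 left out of the fully listed probe set as well, the 3 values came to -1.50, -1.79 and -1.67. In the heart and muscle lists, 9 of the tested probe sets (8 genes) were blank on 0 Se lung 1, so that their 0 Se value came from 0 Se lungs 2 and 3 alone.

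Atrial and ventricular genes were then set side by side. The mean deviation from the 6-array mean was 0.64, -0.98 and -0.72 in 0.1 Se lungs, against -1.82, 1.79 and 1.09 in 0 Se lungs, for the 3 fully listed atrial members (Myl4, Myl7 and Sln). For the 4 members of both chambers (Myh6, Actc1, Tnnt2 and Tnni3) it was 0.89, -1.16 and -0.78 in 0.1 Se lungs, against -1.42, 1.58 and 0.89 in 0 Se lungs. The 2 groups differed by no more than 0.40 on any array, so they followed 1 course. Mybphl, a myosin-binding protein of the atria, was listed at 7.43 on 0.1 Se lung 1 and at 8.43 and 8.02 on 0 Se lungs 2 and 3, and blank on the others. The atrial potassium channel genes Kcnj3 and Kcnj5 were blank on all 6 lung arrays.

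Of the ventricular genes, Myl2, the ventricular regulatory light chain, was listed only on 0 Se lung 2, at 6.87, close to the lowest value of the table. Myl3, the ventricular essential light chain, had 7.45, a blank and 6.91 in 0.1 Se lungs, against a blank, 7.74 and 7.13 in 0 Se lungs (-0.26 ± 0.28, adjusted p = 0.888). On its probe set ending in _s_at it had 8.0 in 0.1 Se lung 1 and 8.0 and 7.43 in 0 Se lungs 2 and 3, the same 3 arrays again. The transcription factor Hey2 lay between 6.80 and 7.07 where it was listed. Myh7, the myosin heavy chain of slow and fetal ventricular muscle, had 10.47, 10.50 and 10.34 in 0.1 Se lungs, against 10.38, 10.26 and 10.44 in 0 Se lungs by its own probe set (0.08 ± 0.09, adjusted p = 0.897). It was flat across arrays on which Myh6 moved 11.8-fold. A probe set shared by Myh6 and Myh7 had 11.11, 9.31 and 9.43 in 0.1 Se lungs, against 9.25, 11.56 and 11.09 in 0 Se lungs, with the same upper 3 arrays as Myh6. Signals of different probe sets cannot be compared as amounts, so these values say where each gene was listed and how it varied, and not how much atrial against ventricular RNA there was. Sampled atrium and pulmonary vein muscle cannot be told apart from them, since the atria and the vein sleeve are known to share the atrial transcripts. Whether ventricle was sampled was not tested.

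**Figure D4:**
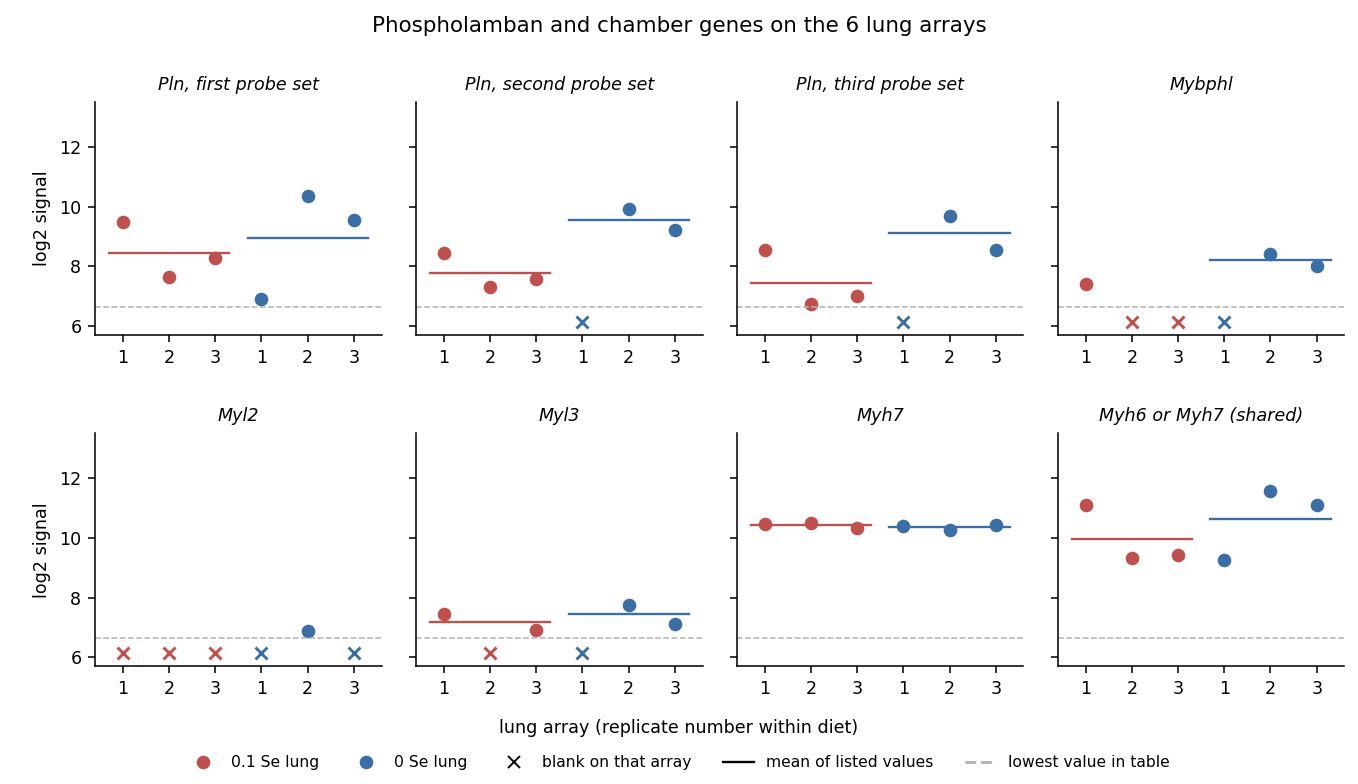
Log2 signal on the 3 0.1 Se (red) and 3 0 Se (blue) lung arrays for the 3 Pln probe sets, the atrial gene Mybphl, the ventricular genes Myl2, Myl3 and Myh7 and the probe set shared by Myh6 and Myh7, with lines, crosses and dashes as in the plot of the members. The second and the third Pln probe sets are blank on 0 Se lung 1, Myl2 is listed once at 6.87 and Myh7 stays between 10.26 and 10.50.

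Some other genes of heart muscle took the same course, in a list chosen with results of these data known. Of 820 other genes with a range of at least 1 log2 unit on the 6 lungs, 23 had an r of 0.9 or more with the member mean. Of these, 15 were in the heart and muscle lists, which held 17 of the 820. The range limit left out listed heart genes that varied little and did not follow the members. Among these were Nebl (r = -0.24, range 0.20), Kcnq1 (-0.51, 0.36) and Nexn (0.35, 0.61). The mean deviation of the calcium and membrane list spanned only 0.35 log2 units. The 10 most alike were Cox6a2 (r = 0.994), Tnnc1 (0.992), Pln (0.991), Atp2a2 (0.991), Pde4dip (0.990), Eno3 (0.989), Csrp3 (0.988), Vcan (0.983), Tcap (0.982) and Srl (0.977), over 6 arrays each. Tnnc1 encodes the calcium-binding troponin, Atp2a2 the calcium pump itself, Cox6a2 a cytochrome oxidase subunit of striated muscle, and Csrp3 and Tcap are Z-disc proteins. Csrp3 had 9.57, 7.98 and 8.18 in 0.1 Se lungs, against 6.81, 10.87 and 10.24 in 0 Se lungs (-0.73 ± 0.85, adjusted p = 0.895). Vcan, the proteoglycan versican, is not a muscle gene, and its range was 1.12. For Atp2a2, which many tissues express, the probe set with this r ranged over 1.87 log2 units and another over 2.14, whereas a further one ranged over 0.27. These Atp2a2 probe sets were picked after their values were seen.

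Low probe sets were also read by where they were listed. Of 798 probe sets with exactly 3 values in lung, 56 (7.02%) had them on 0.1 Se lung 1 and 0 Se lungs 2 and 3. In the heart and muscle lists this held for 10 of 13, from Actn2, Lmod2, Mybphl, Myl3, Myom2, Ryr2, Trdn and Ttn, which were blank on all 6 liver arrays. This set of arrays was chosen after the members' values were seen. Ryr2 is itself a member, and Myom2 and Ttn each gave more than 1 of the 10 probe sets. The count is therefore no separate support for the order of the arrays.

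Of the heart and muscle lists tested against diet, 0 genes passed in limma and 7 had an unadjusted p under 0.05, beside Myoz2. They were 3 of 12 tested sarcomere, 2 of 8 energy, 1 of 10 calcium and 1 of 2 transcription factor genes. Of the 3 tested atrial and the 3 tested ventricular genes, 0 had such a p. The share over all probe sets tested was 7.67%. Of these 7, Smpx, Myom2, Ckmt2 and Hrc were blank on 0 Se lung 1 and, like Myoz2, were tested on 0 Se lungs 2 and 3 alone. In the sarcomere list 12 of 12 tested genes lay below 0 (median -0.33), with the smallest p for Smpx at -1.32 ± 0.39 (adjusted p = 0.432), followed by Nexn at -0.32 ± 0.12 (0.532), Myom2 at -1.07 ± 0.47 (0.650) and Ankrd1 at -0.33 ± 0.22 (0.804). Muscle energy genes gave 8 of 8 below 0 (median -0.74), including Ckmt2, the mitochondrial creatine kinase (-1.69 ± 0.41, adjusted p = 0.301), and Mb, myoglobin (-1.99 ± 0.81, 0.594). Myoglobin had 9.16, 7.41 and 7.25 in 0.1 Se lungs, against 7.72, 11.58 and 10.51 in 0 Se lungs, a wider range than any member. Several genes of these 2 lists, such as Csrp3, Tnnc1, Cox6a2 and Mb, shared the members' upper 3 arrays (r with the member mean from 0.930 to 0.994). The counts of 12 of 12 and 8 of 8 are therefore not independent of the members or within a list. The calcium and membrane list had 7 of 10 below 0 (median -0.07), with the smallest p for Hrc at -0.81 ± 0.25 (adjusted p = 0.439). Of the cardiac transcription factors, Mef2c (-0.14) and Tbx3 (0.24, adjusted p = 0.485) could be tested. The others were listed at most on arrays high for the members: Gata4 on 0 Se lung 3, Tbx5 on 0.1 Se lung 1, and Tbx20 on 0.1 Se lung 1 and 0 Se lung 2.

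Markers of other cell types were read on the same arrays. Of 16 genes of skeletal muscle with a probe set, 4 were listed on any lung array, and 0 could be tested. Acta1, skeletal actin, was listed at 7.28 and Casq1, a skeletal calcium-binding protein, at 6.74, both on 0 Se lung 2 alone. Tnnt1, the slow troponin T, was listed on the 3 0 Se lungs at 6.87, 7.21 and 6.86, and the fast light chain Mylpf on 0.1 Se lungs 1 and 3 at 7.27 and 7.07 and on 0 Se lung 1 at 6.66. The fast myosins Myh1 and Myh4 and the fast troponins Tnni2 and Tnnt3 were blank throughout. Of 12 smooth muscle genes 9 to 12 were listed per array, and the mean deviation of those listed on all 6 ranged over 0.48 log2 units, against 3.26 for the members. It was 0.14, -0.24 and -0.25 in 0.1 Se lungs, against 0.01, 0.23 and 0.10 in 0 Se lungs. The upper 3 arrays were thus those of the members, over a smaller range. By probe set, r with the member mean ran from -0.66 (Mylk) to 0.90 (Des). In this list 10 of 10 tested genes lay below 0 (median -0.25), 2 had an unadjusted p under 0.05 in limma and 0 passed. Genes of ciliated airway cells deviated by -0.05, -0.80 and -0.39 in 0.1 Se lungs, against 0.40, 0.25 and 0.58 in 0 Se lungs. This list was chosen with results of these data known. The paper names its members Fam216b, Akap14, Riiad1, Dnali1 and Ccdc40 among the lowered lung genes, so their direction was known beforehand. In the list 12 of 12 tested genes lay below 0 (median -0.83), and 1 passed: Fam216b fell by 1.18 ± 0.17 in 0.1 Se lungs (adjusted p = 0.0443). Its call ended without any 1 array other than 0.1 Se lung 1 (adjusted p from 0.0808 to 0.184), and with no trend (0.182). It also ended with the signal filter (0.0608), quantile normalization (0.0648), the mean over probe sets (0.120) and the adjusted t-test (0.653). With blanks at the lowest value it was 0.0742 for at least 4 values and 0.456 for no filter. The call held with median centring, added signal, values on all arrays, a robust trend, array weights, the replicate block and the fit of 12 arrays. Ciliated genes were thus high on 0 Se lung 1, where the members were lowest. Lung epithelial genes deviated by -0.30, 0.15 and -0.03 in 0.1 Se lungs, against -0.03, -0.03 and 0.25 in 0 Se lungs. The part of tissue composition in the members' values was not tested.

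The 3 listed genes of fat cells and Cyp2e1 had their highest lung value on the same array as the members. Adipoq, the fat cell hormone adiponectin, had 8.21, a blank and 7.67 in 0.1 Se lungs, against 6.95, 10.30 and 7.82 in 0 Se lungs. Plin4, a lipid droplet protein, had 7.73, 6.69 and 7.56 in 0.1 Se lungs, against 7.30, 8.12 and a blank in 0 Se lungs, and resistin (Retn) was listed only on 0 Se lung 2, at 7.69. Cyp2e1, a cytochrome P450 listed in all liver arrays, had 8.09, 7.38 and 8.13 in 0.1 Se lungs, against 7.75, 9.77 and 8.65 in 0 Se lungs (-0.85 ± 0.41, adjusted p = 0.688). Its r with the member mean was 0.841 over the 6 lungs. The rest of the liver list did not share this: Alb was highest on 0.1 Se lung 3 (7.15), and Apoa1, Ttr, Tat, Cps1, Apoh and Fgb were blank on all 6 lungs. The fat cell genes Cidec and Ucp1 were also blank on all 6. Mesothelial genes, which line the surface of lung and heart sac, had 6 of 6 above 0 (median 0.24) and did not share the order: their mean deviation was highest on 0.1 Se lung 3, at 0.64.

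**Figure D5:**
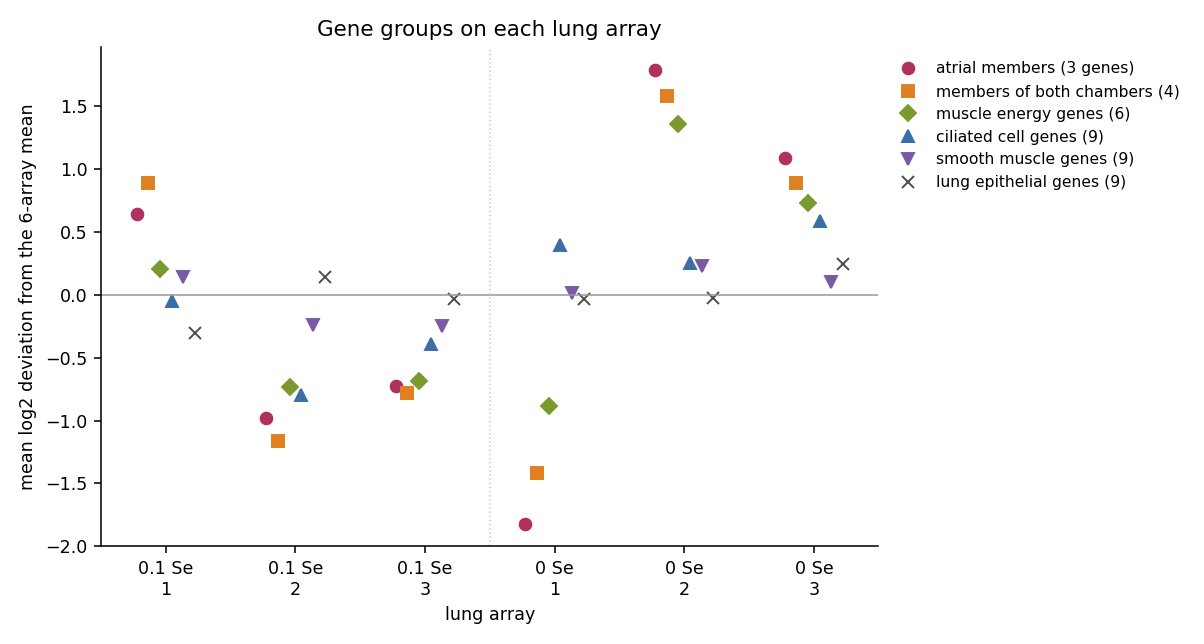
Mean log2 deviation of gene groups from their own 6-array mean on each lung array, 0.1 Se arrays on the left and 0 Se arrays on the right. The atrial members and the members of both chambers span 3.61 and 3.00 log2 units and move together, the smooth muscle and lung epithelial genes span 0.48 and 0.55, and the ciliated genes are high on 0 Se lung 1 (0.40), where the members are lowest.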

How the data were processed

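Liver and lung RNA was measured on 12 arrays, in 4 groups of 3 by the diet and tissue in the labels. The labels do not say whether liver and lung came from the same mice. The authors computed signals with MAS5, scaled each array on its own and excluded absent calls, and the deposited values are log2 of these signals. R 2.15.2 and affy 1.36.0 are named in the processing notes of the submitters. Values were used as deposited, and 0 columns lacked a sample. Genes were named from the platform annotation, updated through RefSeq (24504 probe sets with 1 gene, 660 with several, 4245 with none), and 58 controls were left out. In lung, probe sets with at least 2 values per diet were fitted with limma 3.58.1 (R 4.3.3, with version 1.17.8 of data.table), using a trend in eBayes, and p-values were adjusted by Benjamini-Hochberg at 0.05. Blanks stayed missing. The fit was tested on simulated data. An exact test of 3 against 3 arrays cannot go under 0.1, and the number of arrays limits the precision. Members and gene lists were chosen with earlier results of these data known. Named genes were all members, Pln, the atrial and ventricular lists, up to 4 genes per list by p and the 10 genes most alike, and others were named after their values were seen. Where a gene had several probe sets, lists and array means took the brightest. Alternatives covered filters, scaling, eBayes settings, weights, a replicate block, a fit of 12 arrays, the mean over a gene's probe sets, the methods' t-test and leaving out each array.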

Additional observations from a re-analysis of the deposited data

How the results depend on the processing

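The count of 20 called probe sets in lung was 8 with at least 4 values and blanks at the lowest value, 5 with no filter, 9 above the median signal, 10 after quantile normalization, 13 with a robust trend and 0 with no trend, with the mean over a gene's probe sets or after the methods' t-test was adjusted (1412 before adjustment). With array weights, as with the replicate number as a block, it was 54. Leaving out 1 lung array gave 0 to 75 (0 when replicate 2 of either diet was left out, 4 without 0 Se lung replicate 3 and 75 without 0.1 Se lung replicate 1). Member probe sets called were 0 in every setting except 1, Myoz2, with array weights, with the replicate block and without 0.1 Se lung replicate 1 (range 0 to 1 over arrays left out). With the replicate block Myoz2 was -1.98 (adjusted p = 0.0115), and the Pln probe sets blank on 0 Se lung 1 gave adjusted p = 0.0224 and 0.0458. The numbers do not pair the arrays: deviations of same-numbered 0.1 Se and 0 Se lungs had correlations of 0.05, -0.15 and -0.0092. The median over member genes ranged over -1.64 to 0.00 with 1 array left out. With 1 array left out Tnnt2 ranged from -1.40 to 0.16, Myl4 from -1.59 to 0.069, Myl7 from -1.69 to 0.25 and Pln from -1.50 to 0.23, and the sign turned only without 0 Se lung replicate 2. Over the alternatives, adjusted p lay from 0.153 to 1 for the tested members other than Myoz2 (0.00876 to 1). Adding 32 to the signal for the member deviations, and all rescalings for the range, were chosen after seeing the data, and the median range over members stayed between 3.25 and 3.34. Liver and the comparison of tissues were not run for the members, which had no liver values. Blanks near a signal of 100.0 and 3 arrays per diet limit what can be seen in the weaker members.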
